A study of Mus musculus with 3 samples.

Results

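The genes of the aminoacyl-tRNA synthetases were examined in ribosome-bound RNA of the mouse cortex-amygdala transition zone (CxA), where the ventral cortex meets the amygdala. The group held 3 immunopurified libraries from 3 adult, untreated control mice of the Lypd1-TRAP line OI82, which carries EGFP fused to ribosomal protein L10a and named for Lypd1, so the capture takes polysomes from the cells in which that transgene is active. The number of mice is that of the series' design text, and which mouse gave which library was not given in the sources used here, and no unpurified RNA was analysed here, so no enrichment over the tissue can be given. The genes were taken by symbol from a list of 36, of which all 36 were found among the 32532 genes listed in each library. The list holds 20 genes of cytosolic enzymes and 16 genes of mitochondrial enzymes, Lars2 among the latter.

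An aminoacyl-tRNA synthetase joins an amino acid to its transfer RNA, the step at which the genetic code is read into protein chemistry. Most animals keep separate enzymes for the cytosol, where messenger RNAs of nuclear genes are translated, and for mitochondria, where a small set of respiratory chain proteins is made with transfer RNAs encoded in mitochondrial DNA. Both sets are encoded in the nucleus and translated on cytosolic ribosomes, so both can appear in ribosome-captured RNA. In the nervous system, inherited defects of these enzymes are known as causes of peripheral neuropathy, leukodystrophy, epilepsy and hearing loss.

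Levels are given as CPM, a gene's read count scaled in the usual way to all reads assigned to genes in its library. Levels of different genes are compared as CPM per kb, which divides CPM by the length of the gene's annotated exons. The libraries held 18526251, 24690301 and 8668527 assigned counts in replicates 1, 2 and 3. A value with ± is a mean with its SD (n = 3 libraries). A gene was called detected when no library had it under 1 CPM. All 8 neuronal markers were detected, with summed levels of 9342 to 17475 CPM. Glial and vascular RNA was present as well: the summed levels were 1340 to 2252 CPM for 8 astrocyte markers, 257 to 434 for 8 oligodendrocyte markers, 22.2 to 46.5 for 8 microglial markers and 35.6 to 92.4 for 8 endothelial and mural markers. Of the microglial markers 4 of 8 were detected and C1qa was listed at 0 in replicate 1, and of the endothelial and mural markers 5 of 8 were detected. The part that these other cells have in the synthetase levels was not tested, and in such tissue fewer cells of a type and less RNA per cell cannot be told apart.

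All 36 synthetase genes were detected, where 39.3% of all listed genes were. The lowest count of any of them was 23 reads, for Pars2 in replicate 1. One gene stood far from the others. Lars2, the mitochondrial leucyl-tRNA synthetase, held 118663, 161859 and 34233 reads in replicates 1, 2 and 3, or 6405, 6556 and 3949 CPM. It was thus near-equal in replicates 1 and 2 and lower in replicate 3. Reads assigned to Lars2 made up 84.6%, 83.8% and 75.1% of all synthetase reads. Of the whole library, Lars2 held 0.641%, 0.656% and 0.395%, and the other 35 genes together 0.117%, 0.127% and 0.131%. By CPM it ranked 5th, 5th and 8th among all genes in replicates 1, 2 and 3. Among the other 35 genes, mean levels ran from 4.65 CPM (Pars2) to 173 CPM (Nars).

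**Figure D1:**
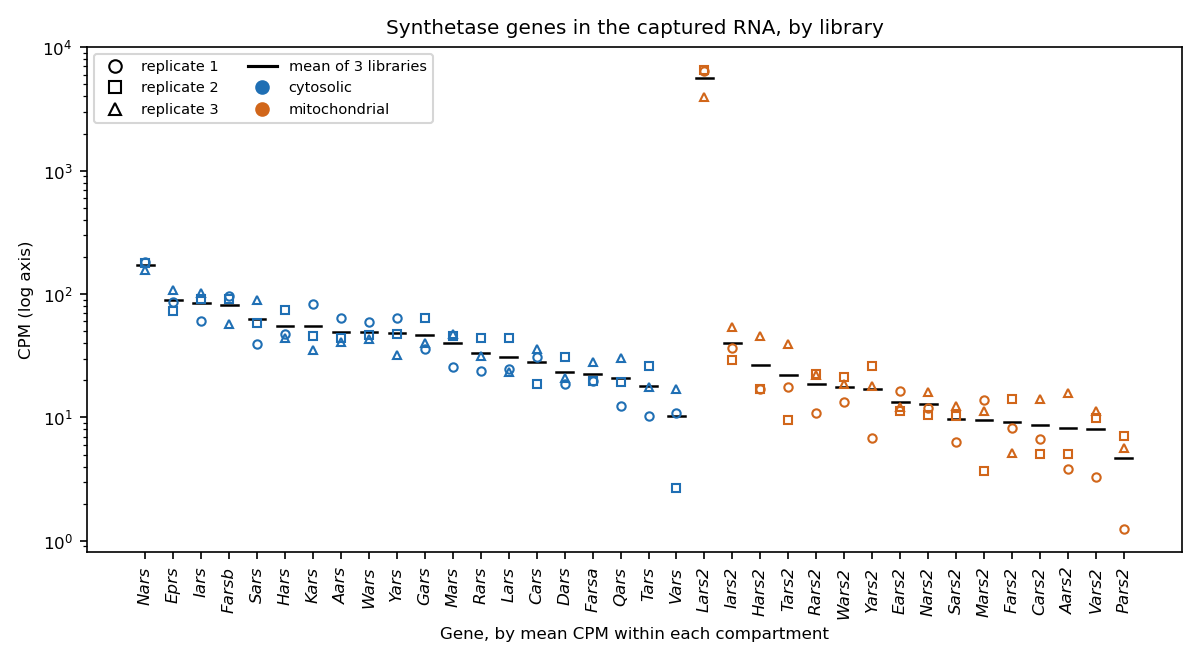
CPM (log axis) of the 20 cytosolic and 16 mitochondrial synthetase genes, each symbol 1 library and each bar the mean of 3 libraries. Lars2 lies between 3949 and 6556 CPM in all 3 libraries, and every other gene has a mean of 173 CPM or less.

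By the median gene, RNA of the cytosolic enzymes was the more abundant. Summed with Lars2, the mitochondrial genes were higher, at 6579, 6758 and 4251 CPM in replicates 1, 2 and 3. The cytosolic genes summed to 993, 1068 and 1004 CPM. Per kb, replicates 1, 2 and 3 had cytosolic medians of 7.43, 9.21 and 7.03 CPM, and the mitochondrial median, Lars2 included, was 2.03, 2.36 and 3.24 CPM per kb. The difference of medians, taken as log2(CPM per kb + 0.1) within each library, was 1.82, 1.91 and 1.08, a mean of 1.61 ± 0.45 or 3.04-fold, positive in 3 of 3 libraries and larger than its spread. The gap was narrowest in replicate 3, where the mitochondrial median was highest. Without Lars2 the difference was 1.67 ± 0.47. It was 0.94 ± 0.58 when genes with a mean under 10 CPM, all of them mitochondrial, were left out. No p is given for this difference, because the genes were chosen with earlier results of these libraries known.

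Against the genes of the whole library, the cytosolic set sat near the middle and the mitochondrial set below it. The median of all detected genes was 5.80, 5.49 and 6.13 CPM per kb, so the cytosolic median lay 0.42 ± 0.28 above it on the log2 scale and the mitochondrial median at −1.18 ± 0.29 from it. Of the 20 cytosolic genes 11 were above the median of detected genes, and of the 16 mitochondrial genes 3 were: Lars2, Rars2 and Hars2. The sets overlapped. Above Rars2, the highest mitochondrial gene after Lars2, stood 11 of 20 cytosolic genes, and 6 of the other 15 mitochondrial genes lay below Vars, the lowest cytosolic gene. With the longest coding transcript as the length, these counts were 14 and 3.

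Among cytosolic enzymes, Nars stood highest. Nars, the asparaginyl-tRNA synthetase, measured 181, 179 and 158 CPM in replicates 1, 2 and 3, the narrowest relative range of the 20 cytosolic genes, and 39.6 ± 2.93 CPM per kb. Next per length came Farsb, which encodes the beta subunit of the phenylalanyl enzyme, with 96.0, 91.4 and 57.0 CPM and 31.1 ± 8.14 CPM per kb. Hars, the histidyl enzyme, followed with 22.5 ± 6.83 CPM per kb. At 93.7%, 90.9% and 86.3% of the way up the ranking of detected genes per kb, these 3 stood well above the median, and Lars2 stood at 99.89%.

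The same 4 genes led when the longest coding transcript was used as the length. Eprs, which encodes a single protein with both glutamyl and prolyl activity, showed how much the length matters. It measured 85.6, 73.5 and 109 CPM, the second highest cytosolic mean by CPM, yet ranked 20th of 36 at 4.93 ± 0.98 CPM per kb of its 18102 annotated exon bases. Per kb of its longest coding transcript of 4906 bases it measured 18.2 ± 3.63 and ranked 8th. Iars, the isoleucyl enzyme, measured 60.9, 91.7 and 103 CPM and 16.1 ± 4.12 CPM per kb. Of its longest coding transcript 51.3% matched other annotated genes at 95% identity or more, the longest match being 1656 bases of the processed pseudogene Gm4849. Reads that aligned to more than 1 place were kept out of gene counts, and their part in the level of Iars was not tested.

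**Figure D2:**
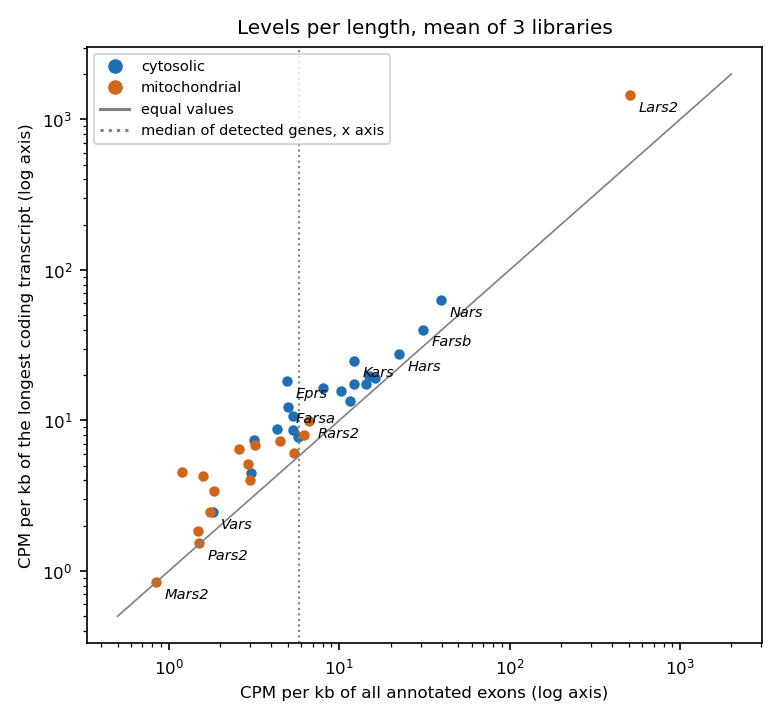
Mean CPM per kb of 36 synthetase genes with the union of annotated exons (x, log axis) against the longest coding transcript (y, log axis) as the length, mean of 3 libraries. Lars2, Nars, Farsb and Hars lead on both axes, whereas Eprs moves from 4.93 to 18.2 CPM per kb.

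Most cytosolic genes lay between these extremes. Sars (seryl), Hars, Aars (alanyl), Wars (tryptophanyl), Yars (tyrosyl), Mars (methionyl), Rars (arginyl), Lars (leucyl), Cars (cysteinyl), Dars (aspartyl) and Farsa had means from 22.6 CPM (Farsa) to 62.5 CPM (Sars), and per length from 4.29 (Cars) to 22.5 (Hars) CPM per kb. Aars shares 23.1% of its longest coding transcript with Exosc6, and Hars shares 195 bases with Hars2.

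The lowest cytosolic genes were Vars, Tars and Qars. Vars, the valyl enzyme, measured 10.8, 2.67 and 17.1 CPM, with its highest library 6.39 times its lowest, the widest range of all 36 genes, and 66 reads in replicate 2. Tars, the threonyl enzyme, measured 10.3, 25.9 and 17.7 CPM and was lowest in replicate 1. Qars, the glutaminyl enzyme, measured 12.3, 19.5 and 30.6 CPM and was also lowest in replicate 1. Vars was lowest in replicate 2, so these genes did not share an order of libraries. Per length they were the lowest cytosolic genes too, at 1.82 ± 1.29, 3.04 ± 1.33 and 3.16 ± 1.40 CPM per kb.

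Gars and Kars, whose genes each supply the glycyl and lysyl enzymes of both compartments, lay within the range of the other cytosolic genes. Gars measured 35.9, 64.2 and 39.9 CPM and 14.97 ± 4.91 CPM per kb, and Kars 83.0, 45.8 and 35.1 CPM and 12.2 ± 5.64 CPM per kb. They ranked 5th and 7th of the 20 cytosolic genes per length. Gars was highest in replicate 2 and Kars in replicate 1. Without both of them the cytosolic minus mitochondrial difference was 1.46 ± 0.50.

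The active cytosolic phenylalanyl enzyme needs equal numbers of alpha and beta subunits, yet the RNA of the beta subunit was the higher. Farsa, the alpha subunit gene, measured 19.8, 19.9 and 28.1 CPM, below Farsb in every library. Farsb minus Farsa, a pair chosen after its values were seen, was 3.04, 2.96 and 1.79 in log2(CPM per kb + 0.1), a mean of 2.60 ± 0.70 or 6.07-fold, above 0 in each. The size depends on the length used: it was 1.67 ± 0.70 with the longest coding transcripts and 1.83 ± 0.71 for CPM without length. Of the Farsb transcript 12.3% is shared with the overlapping gene Sgpp2.

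Several cytosolic synthetases are held together in the multi-synthetase complex on the scaffold proteins encoded by Aimp1, Aimp2 and Eef1e1. All 8 complex enzymes on the list (Eprs, Iars, Lars, Mars, Qars, Rars, Kars and Dars) were detected, with a median of 7.39 ± 1.63 CPM per kb, and the 12 cytosolic genes outside it had a median of 9.41 ± 0.23. The difference of −0.34 ± 0.28 in log2(CPM per kb + 0.1) was negative in 3 of 3 libraries but little larger than its spread, and with the longest coding transcript it was −0.16 ± 0.21, smaller than its spread. The scaffold genes measured 19.2 ± 7.23 CPM for Aimp1, 15.01 ± 10.95 for Aimp2 and 15.9 ± 7.79 for Eef1e1. Aimp1 was highest in replicate 1, with 27.5 CPM, and Aimp2 and Eef1e1 in replicate 2, with 27.5 and 24.6 CPM.

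Synthetases fall into 2 structural classes that fold and bind their transfer RNA differently. The 9 cytosolic genes of class I had a median of 6.98 ± 1.43 CPM per kb and the 10 of class II a median of 10.2 ± 0.60, leaving out Eprs, which joins one of each. Class I minus class II was −0.54 ± 0.30 in log2(CPM per kb + 0.1), negative in 3 of 3 libraries. With the longest coding transcript it was −0.42 ± 0.16.

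Cytosolic synthetase genes are known targets of ATF4, the transcription factor that is made when amino acids run short. ATF4 with a C/EBP partner binds amino acid response elements, searched here as the letters TGATGNAA on both strands. RefSeq promoter sequences of GRCm38.p6, from 250 bases before to 50 after the start, were matched for 27 of the 36 genes. They were not matched for Cars, Hars, Hars2, Lars, Nars, Pars2, Rars, Vars and Wars. The element was found in 5 of 13 cytosolic promoters (Aars, Gars, Iars, Tars and Yars) and in 0 of 14 mitochondrial ones, where 4.51% of all 27025 genes with such a sequence held it. For each gene 1 match is given, within 30 bases of the gene's own strand, 5′ to 3′, with the match in capitals. Its letters recur across the genes because the search required them.
Aars: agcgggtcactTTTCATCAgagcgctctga
Gars: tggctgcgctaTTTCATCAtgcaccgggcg
Iars: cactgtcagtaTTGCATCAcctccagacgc
Tars: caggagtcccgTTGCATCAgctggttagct
Yars: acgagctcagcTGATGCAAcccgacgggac

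These windows lie at chr8:111033840-111033869 (Aars, plus strand), chr6:55037960-55037989 (Gars, plus), chr13:49682126-49682155 (Iars, plus), chr15:11399655-11399684 (Tars, minus) and chr4:129189895-129189924 (Yars, plus). In Yars the element reads TGATGCAA on the gene's strand, and in the others it is on the opposite strand. The first base of the match lay 10 bases after the start in Aars, 30 before in Gars, 8 after in Iars, 15 before in Tars and 4 after in Yars, counting the start as base 1. The 5 genes with the response element ranged from 3.04 (Tars) to 16.1 (Iars) CPM per kb, within the range of the other cytosolic genes. These matches describe letters in the windows and show no binding.

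Other genes of the amino acid response were present at low to moderate level in these untreated mice. Of 27 on the list 22 were detected, with a median of 13.6 ± 4.13 CPM. The highest were Cebpg, a C/EBP partner of ATF4, at 125 ± 24.7 CPM, Slc38a2, a neutral amino acid transporter, at 87.9 ± 35.9 CPM, and Atf4 itself at 82.5 ± 20.5 CPM. Asns, the asparagine synthetase gene that is a standard readout of this response, measured 63.2, 86.1 and 40.95 CPM in replicates 1, 2 and 3. Trib3, a stress-induced pseudokinase, had 0 reads in all 3 libraries, which allows up to 0.162, 0.122 and 0.346 CPM, the level of 3 counts, in replicates 1, 2 and 3 (counting error only). Sesn2, Cth, Eif4ebp1 and Nupr1 were under 1 CPM in at least 1 library. Of the 26 genes with a read 17 were highest in replicate 1, where 32.6% of all detected genes were. Of the astrocyte markers 7 of 8 and of the oligodendrocyte markers 6 of 8 were also highest in replicate 1, and their part in these levels was not tested. Chac1, which degrades glutathione, measured 30.4, 7.13 and 6.34 CPM, with an edgeR goodness-of-fit p of 0.0453 and an adjusted p of 0.624.

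Apart from Lars2, the mitochondrial genes were low. The highest by CPM was Iars2, the isoleucyl enzyme, with 36.3, 29.2 and 54.2 CPM. Of its longest coding transcript 37.2% overlaps exons of Rab3gap2, and reads in such a stretch cannot be assigned to 1 gene without strand. Hars2, the histidyl enzyme, measured 16.9, 16.9 and 46.0 CPM, and Tars2, the threonyl enzyme, 17.7, 9.52 and 39.1 CPM. All 3 were highest in replicate 3. Per length the highest were Rars2, the arginyl enzyme, at 6.69 ± 2.37 CPM per kb, Hars2 at 6.22 ± 3.93, and Yars2, the tyrosyl enzyme, at 5.42 ± 3.11.

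At the low end, Aars2, the alanyl enzyme, measured 3.83, 5.06 and 15.9 CPM, Vars2, the valyl enzyme, 3.29, 9.80 and 11.2 CPM, and Pars2, the prolyl enzyme, 1.24, 7.05 and 5.65 CPM. Per length the lowest was Mars2, the methionyl enzyme, with 13.8, 3.65 and 11.2 CPM and 0.85 ± 0.47 CPM per kb. Its annotated transcript of 11294 bases is the longest of the mitochondrial genes. The remaining mitochondrial genes (Wars2, Ears2, Nars2, Sars2, Fars2 and Cars2) had means of 8.63 to 17.7 CPM. Cars2, the cysteinyl enzyme, shares 22.3% of its longest coding transcript with Naxd.

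Set side by side by amino acid, the cytosolic gene exceeded its mitochondrial partner in all 3 libraries for 12 of 16 pairs. With 3 libraries the smallest p of an exact sign-flip test is 0.25 (two-sided), so the pairs are described by their spread. The widest gap with the cytosolic gene ahead was Nars over Nars2, with 4.52, 4.68 and 3.91 in log2(CPM per kb + 0.1), a mean of 4.37 ± 0.41 or 20.7-fold. Mars over Mars2 followed with 2.52, 5.01 and 3.68, a mean of 3.74 ± 1.24, then Wars over Wars2 with 2.88, 1.91 and 1.96, a mean of 2.25 ± 0.55. The least variable was Sars over Sars2, the seryl enzymes, at 1.996 ± 0.185. The other 8 of these 12 pairs had means from 0.64 ± 0.30 (Rars over Rars2) to 1.96 ± 1.12 (Hars over Hars2), Eprs counted once for glutamate and once for proline. Phenylalanine was paired through Farsa, the lower of its 2 cytosolic subunit genes, and the order of gaps depends on that choice. Farsb over Fars2 had a mean of 4.27 ± 0.43, between those of Nars over Nars2 and Mars over Mars2. Both Eprs pairs depended on the length: Eprs over Pars2 was 1.91 ± 1.25, but 3.75 ± 1.25 with the longest coding transcripts and 4.53 ± 1.34 for CPM without length, above the 3.76 ± 0.42 of Nars over Nars2 on that scale. Eprs over Ears2 was 0.91 ± 0.37, and 1.47 ± 0.38 and 2.74 ± 0.38 by these 2 measures.

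Leucine was the one pair with the opposite sign in every library. Lars, the cytosolic leucyl enzyme, measured 24.8, 43.9 and 23.5 CPM and 5.72 ± 2.12 CPM per kb, the 12th of the 20 cytosolic genes per length. Lars minus Lars2 was −6.94, −6.16 and −6.31, a mean of −6.47 ± 0.41, so Lars2 was 88.6-fold higher per length. With the longest coding transcripts the difference was −7.55 ± 0.41, and for CPM without length −7.54 ± 0.42. In 3 pairs the sign changed between libraries. Tars minus Tars2 was −0.53, 1.61 and −0.89, and Vars minus Vars2 was 1.53, −1.72 and 0.55, with means of 0.063 ± 1.351 and 0.12 ± 1.66 that are far smaller than their spread. Yars minus Yars2 was 2.27, −0.061 and −0.090, and with the longest coding transcript it was positive in all 3 libraries, at 1.56 ± 1.36.

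**Figure D3:**
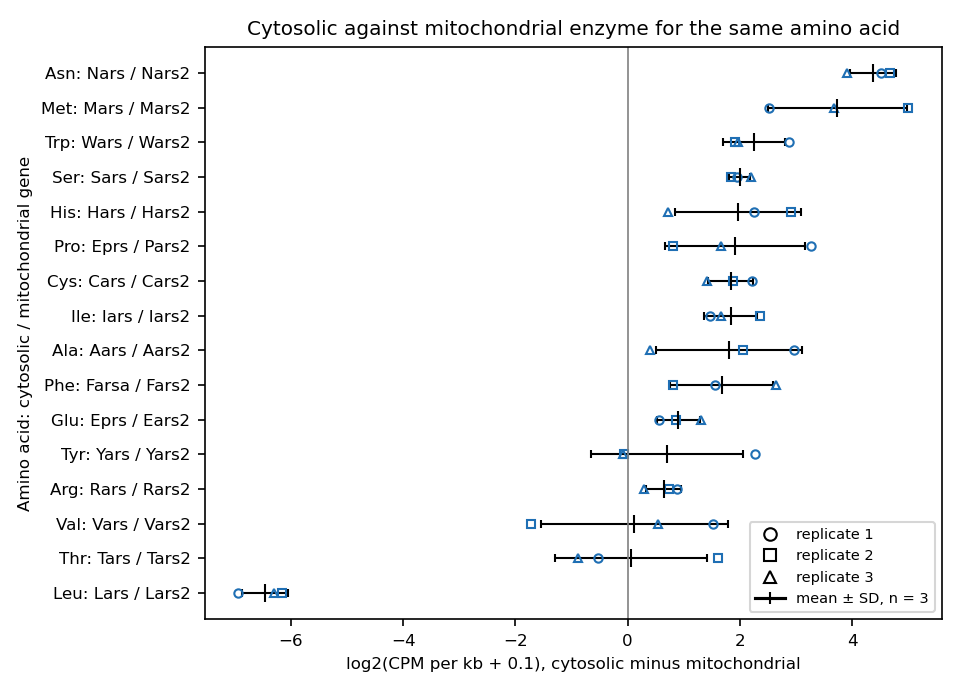
Cytosolic minus mitochondrial level in log2(CPM per kb + 0.1) for 16 amino acid pairs, each symbol 1 library, with the mean ± SD (n = 3). The leucine pair lies at −6.47, and 12 pairs lie to the right of 0 in every library.

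Lars2 lies on the plus strand of chromosome 9, at chr9:123366927-123462666 in GRCm38, and its longest coding transcript, of 3894 bases, has 21 exons. Its level was 577.6, 591 and 356 CPM per kb, 13.9, 14.4 and 9.82 times that of Nars, the next gene per length. With the longest coding transcripts these ratios were 24.96, 25.8 and 17.6, and for CPM without length 35.4, 36.6 and 25.0. Lars2 minus the median of the other 15 mitochondrial genes was 8.17, 7.96 and 6.78 in log2(CPM per kb + 0.1), a mean of 7.64 ± 0.75. Each file gives 1 value per gene, so where along the gene these reads fell is not known. In the last exon, within the 3′ untranslated region, 72 bases at chr9:123462048-123462119 matched a transcript of the non-coding gene Gm15564 at 98.6% identity. A wider stretch of 196 aligned bases, from position 123461933 to 123462119, matched the transcript AA474408 at 80.1%. Neither Gm15564 nor AA474408 is listed in the count files, and no other annotated gene overlaps the exons of Lars2.

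Rn45s, the ribosomal RNA precursor, had the highest mean CPM of all genes, and Lars2 and Rn45s were both lowest in replicate 3. Rn45s measured 79910, 92580 and 67326 CPM in replicates 1, 2 and 3. Lars2 reads equalled 8.02%, 7.08% and 5.87% of the Rn45s reads. All 8 neuronal markers were lowest in replicate 3 too, where 31.4% of all detected genes were lowest. The sequence of the ribosomal RNA precursor was not used here, and the part of ribosomal RNA reads in the Lars2 count was not tested. Of 9 genes listed as possible collectors of such reads 3 were matched, and the other 2, Zc3h7a at 52.0 ± 32.0 CPM and Cdk8 at 38.6 ± 17.1 CPM, were not lowest in replicate 3.

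The other mitochondrial genes, when summed, followed a different order from Lars2. Their summed level was 174, 202 and 302 CPM in replicates 1, 2 and 3, so it was highest where Lars2 was lowest. Of these 15 genes 8 were highest in replicate 3, 5 in replicate 2 and 2 in replicate 1, so they did not share an order. In replicate 3 only 1 of them, Fars2, was lowest. Of all detected genes 36.3% were highest and 31.4% lowest in that library, and 8 of the 20 cytosolic genes were highest there. The cytosolic sum was even, at 993, 1068 and 1004 CPM. Malat1, a nuclear non-coding RNA, was also highest in replicate 3, at 34476, 14400 and 82537 CPM, as were the non-coding RNAs Meg3 at 22092, 13930 and 46742 CPM and Snhg11 at 5853, 2644 and 10041 CPM. Neat1, the other nuclear RNA on the list, was highest in replicate 1, at 41.5, 10.2 and 37.95 CPM. In replicates 1, 2 and 3, reads in no counted feature made up 31.4%, 25.6% and 45.3% of entries. Their part in the mitochondrial levels was not tested.

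**Figure D4:**
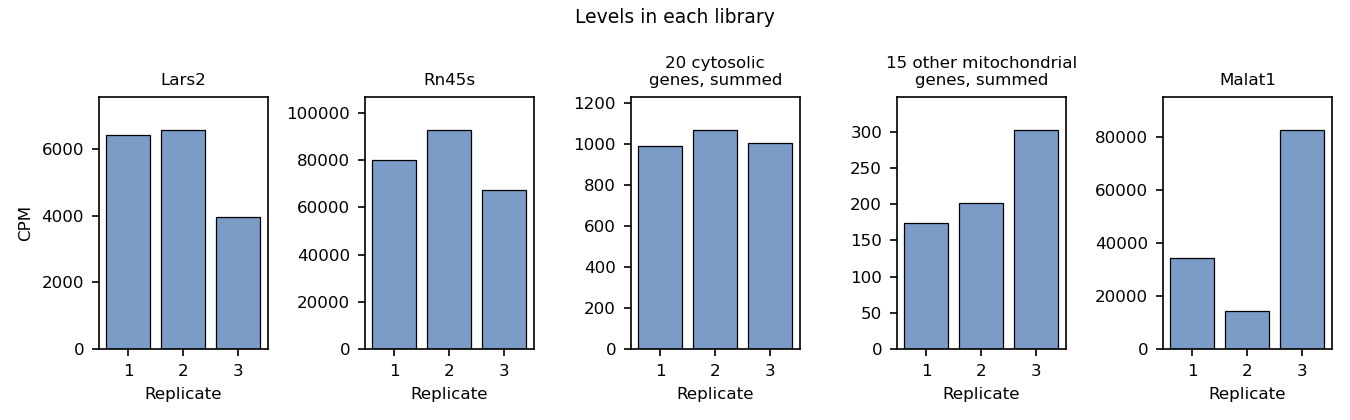
CPM in replicates 1, 2 and 3 (bars from 0, each panel with its own scale) of Lars2, Rn45s, the 20 cytosolic genes summed, the 15 mitochondrial genes other than Lars2 summed, and Malat1. Lars2 and Rn45s are lowest in replicate 3, where the summed mitochondrial genes reach 302 CPM and Malat1 82537 CPM.

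No synthetase gene passed the test of variation between libraries. In edgeR's goodness-of-fit test on 15336 genes, those with a mean CPM of at least 1, 0 of 36 synthetase genes varied more than genes of their level (adjusted p below 0.05), where 0.209% of all genes did. At an unadjusted p under 0.05 the number was also 0 of 36, against 7.82% of all genes. The dispersions came from these same 3 libraries, so wide ranges can go uncalled. Vars, with its highest library 6.39 times its lowest, had an edgeR goodness-of-fit p of 0.166. The count of 0 therefore does not show that the levels were steady. The smallest adjusted p values from edgeR were 0.847 for Tars2 and 0.877 for Yars2, and for Lars2 it was 0.965. Without replicate 1, Vars and Tars2 had unadjusted edgeR p values of 0.0411 and 0.031, with adjusted values of 0.740 and 0.685. The cytosolic genes were the steadier set in size: the highest library was less than 2 times the lowest for 15 of 20 cytosolic and 6 of 16 mitochondrial genes, where this held for 52.3% of all detected genes. Mitochondrial genes had fewer reads, and the part of counting error in that contrast was not tested.

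In mitochondria, glutaminyl-tRNA is made without a glutaminyl synthetase: Ears2, the glutamyl enzyme, charges the transfer RNA with glutamate, and an amidotransferase of the products of Qrsl1, Gatb and Gatc converts it. Ears2 measured 16.4, 11.3 and 12.2 CPM. Qrsl1 measured 12.3 ± 1.13 and Gatb 13.6 ± 5.15 CPM, levels like that of Ears2, and per length they were at 3.16 and 3.15 CPM per kb against 2.58 for Ears2. Gatc was far higher, with 97.3, 131.6 and 81.0 CPM and 57.5 CPM per kb, the highest of the mitochondrial transfer RNA and translation genes by CPM and, of those with a length, per kb. After Gatc the highest of that list by CPM were Trit1, which modifies transfer RNAs in both compartments, at 36.5 ± 12.3 CPM, and the initiation factor Mtif2 at 34.2 ± 6.91 CPM.

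Of the 22 mitochondrial transfer RNA and translation genes 21 were detected, with a median of 15.5 ± 1.36 CPM, close to the 12.5 ± 3.01 CPM of the mitochondrial synthetases without Lars2. Pus1, a pseudouridine synthase, was the exception, with 0.702, 0.608 and 2.42 CPM. Tufm, the elongation factor that brings charged transfer RNAs to the mitochondrial ribosome, measured 5.72, 11.4 and 9.69 CPM. No member of the list was called by the edgeR goodness-of-fit test, where 0.209% of all genes were. At an unadjusted p under 0.05 the number was also 0, against 7.82% of all genes. These counts do not show that the levels were steady: Trmu measured 2.21, 2.15 and 14.7 CPM in replicates 1, 2 and 3.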

How the data were processed

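Polysomes were captured with anti-EGFP antibodies and their RNA sequenced, in 3 libraries. The deposited files hold whole-number counts of reads per gene, not normalized; per the submitters' processing notes STAR 2.0.0e, HTSeq and the mm10 build were used. Annotation, strand setting and library kit are not given in the sources used here. The 5 summary classes stayed out of library totals. Entries aligned to more than 1 place were 24.5 ± 8.13% of all entries and ambiguous ones 1.54 ± 0.39%. CPM, log2 values with a pseudocount of 0.1 and exon lengths from GENCODE M21 (GRCm38) were computed with Python 3.11.15, pandas 2.3.3, numpy 2.4.6 and matplotlib 3.10.9. Lengths were found for 36 of 36 synthetase genes and 91.8% of detected genes. For variation between libraries, an intercept-only edgeR model (4.0.16, R 4.3.3) with TMM factors and trended dispersions gave a goodness-of-fit chi-square per gene, Benjamini-Hochberg adjusted over 15336 genes. The script was tested on simulated data. With 1 group there is no contrast. A p-value is the probability of a deviance at least as large if the gene varied like genes of its level. It does not measure the size of the spread. DESeq2 1.42.0 gave alternative size factors only. Transcripts were compared with BLAST 2.17.0, counting matches of 50 bases or more at 95% identity. One item of the promoter search is not reported here. Genes named in full are Lars2, the extremes of each set, the genes of both compartments and the widest and narrowest pairs. The genes, lists and tests were chosen with earlier results of these data known.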

Additional observations from a re-analysis of the deposited data

How the results depend on the processing

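The cytosolic minus mitochondrial difference (1.61 ± 0.45, log2) stayed positive in every library under all 11 alternatives, from 0.94 (genes of at least 10 CPM) to 1.87 (without replicate 3). Lars2 minus the other mitochondrial genes ranged from 7.19 (pseudocount of 1) to 8.80 (CPM without length). The count of pairs with the cytosolic gene ahead in every library, 12, was 12 or 13. It was 13 with the longest coding transcript and 13 without replicate 2. Its members changed for CPM without length, where Hars over Hars2 was positive in 2 of 3 libraries and Yars over Yars2 in all 3. Detection of the 36 genes fell to 31 at 5 CPM and stayed at 36 under the other 4 alternatives. Of the related genes 59 were detected, and 48 to 62 under 5 alternatives chosen after seeing the data. The count of 0 varying synthetase genes held under 8 alternatives, 1 of which (a mean of 5 CPM or more) tested 35 of them, without Pars2, while the genes called in all, 32, became 780 with a common dispersion (5.09%), 8 without replicate 1 and 5 without replicate 2. With the 4 genes Rn45s, Malat1, Meg3 and Lars2 left out of the totals, Lars2 measured 6642 CPM. No paired analysis was possible because the series has 1 group. Depth limits the lowest genes, down to 23 reads.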

Other observations

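Around the cytosolic synthetases, the genes that carry, check and release charged transfer RNAs were all present. All 13 on the list were detected, with a median of 48.9 ± 8.10 CPM. The highest was Eef1a1, the elongation factor that takes charged transfer RNAs to the ribosome, at 544, 584 and 370 CPM in replicates 1, 2 and 3. Its relative Eef1a2, known as the form of mature neurons and muscle, measured 95.5 ± 11.6 CPM, and per length Eef1a1 was at 200.3 and Eef1a2 at 45.8 CPM per kb. Eef1g, a subunit of the exchange factor for both, measured 113.6 ± 17.2 CPM. Dtd1, which removes D-amino acids from transfer RNAs, measured 90.8, 183 and 64.9 CPM and was highest in replicate 2, with an edgeR goodness-of-fit p of 0.0411 and an adjusted p of 0.615. Xpot, the exporter of transfer RNAs from the nucleus, differed little between libraries, at 102.3, 99.6 and 98.98 CPM.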
